A study of Mus musculus with 2 samples.

Results

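The insulin-like growth factor (IGF) system was followed in C2C12 myotubes through 10 genes: the ligands Igf1 and Igf2, the receptors Igf1r and Igf2r, and the binding proteins Igfbp2 to Igfbp7. The genes were listed by name, and every probe that the deposited scanner files assign to one of these names was used, 19 probes in all. The 10 genes stand among 37305 gene names on the array, of which 16989 were measured, meaning that the brightest probe of the gene was well above background on both arrays. All 10 were measured, and 17 of the 19 probes were. C2C12 cells are established mouse myoblasts able to fuse, and the myotubes were obtained here by 4 to 6 days in medium with 2% horse serum. The treated culture was exposed for 24 h to 4 µg of exosomes, small vesicles that cells release, from a KPC line (KPC-exo), a mouse pancreatic cancer line. The control culture was exposed to exosomes of the mouse pancreatic ductal epithelial line MPDC (MPDC-exo), at a dose not given in the sources used here, so both cultures received vesicles and neither is an untreated culture. Each group is 1 culture on 1 array, hence no test was run, no p-value is given, and the vesicle source cannot be told apart from any other difference between the 2 cultures.

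IGF1 and IGF2 are secreted peptides that act on the tyrosine kinase IGF1R, which signals through insulin receptor substrates to PI3K and Akt. In muscle they promote myoblast differentiation and fibre growth, and IGF2 is made by differentiating myoblasts themselves. IGF2R, the cation-independent mannose 6-phosphate receptor, takes up IGF2 for breakdown in lysosomes and does not signal as IGF1R does. The binding proteins hold the ligands outside the cell and either restrain or deliver them, and proteases such as PAPP-A release the ligands again.

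None of the 10 genes was 1.5-fold apart between the cultures. Igf1 had the largest difference, with its brightest probe 1.35-fold higher after KPC-exo, another probe 1.68-fold higher and the last 1.02-fold higher. Igfbp5 was 1.21-fold lower at its brightest probe and 1.21-fold higher at its other one. Both receptors were slightly higher, Igf1r 1.15-fold and Igf2r 1.16-fold, and the other members were at most 1.11-fold apart. Across the array, 3.73% of measured genes were at least 1.5-fold higher and 3.70% at least 1.5-fold lower, so the count of 0 members in either direction lies near that background for 10 genes. The median log2 difference of the 10 members was 0.09, against 0.06 for all measured genes, and 6 members lay above that second value and 4 below it.

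All levels below are log2 signals relative to the 75th percentile of the array, which was 380 signal units for MPDC-exo and 639 units for KPC-exo, and differences are KPC-exo minus MPDC-exo. A probe's brightness depends on its sequence and its place in the transcript, so levels of different probes were not ranked against each other. Every member probe was spotted once per array, and the ± given with a difference is the error that the scanner software assigns to the spots, combined over both arrays. It is not a measured scatter. Over 292 probes with 10 spots, the median SD of log2 signal was 0.028 for MPDC-exo and 0.026 for KPC-exo. Both are smaller than every ± given here, so a step within its ± can still exceed the scatter of replicate spots. Probes of 1 gene also differed among themselves. Over 5736 genes with at least 2 measured probes, probes of the same gene varied around their mean log2 difference with a pooled SD of 0.36. Over the 5 members with several measured probes it was 0.27, inside the range of the scanner errors of the measured member probes, 0.20 to 0.36. None of these errors holds any variation between cultures. In RNA from a whole culture, fewer cells of a type and less RNA per cell cannot be told apart.

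The labelled cell type was checked against its markers. All 8 myotube markers on the array were measured, with a summed level of 322 times the 75th percentile for MPDC-exo and 313 times for KPC-exo. Their single differences ran from -0.43 for Ckm and -0.41 for Des to 0.34 for Tnnt3. Of 5 markers of undifferentiated or cycling myoblasts, 4 were measured and Myf5 was not well above background, and their summed level was 15.3 against 11.8, with single differences from -0.41 to -0.28. Of 6 epithelial markers, which the exosome donor cells could carry, only Krt19 was well above background on both arrays, and the summed level of the list was 0.289 against 0.339. The part of these cell states in the member values was not tested.

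**Figure D1:**
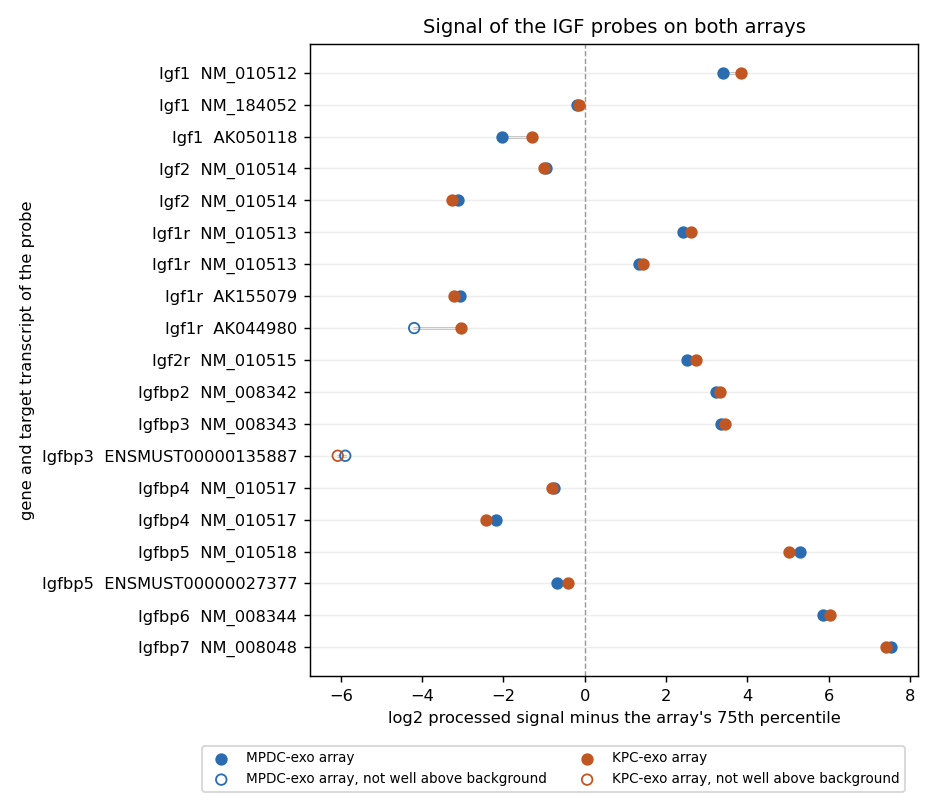
Signal of the 19 IGF probes on the MPDC-exo array (blue) and the KPC-exo array (orange), as log2 processed signal relative to the 75th percentile of each array, with 1 row per probe and open circles where a probe was not well above background. Both points of a row nearly coincide for most probes, the widest gaps being the Igf1r probe for AK044980 and the Igf1 probe for AK050118.

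The probes that decide how Igf1, Igfbp5 and Igf1r are read are shown by their first 30 of 60 bases, 5′ to 3′, as given in the deposited files, because probes of the same gene gave different values. Capitals mark AATAAA or ATTAAA, the hexamers that direct cleavage and polyadenylation near the end of many transcripts. One of these was found as printed in 2 of the 19 member probes and in 13.4% of all 56605 probes, and on the other strand in 1 member probe and 6.36% of all probes. A match is a string of letters and not a mapped site.
Igf1, probe for NM_010512: cgcaggatcctttgctgcttgagcaacctg
Igf1, probe for NM_184052: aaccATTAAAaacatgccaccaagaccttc
Igf1, probe for AK050118: taaaatagttgagtaaaatttgccactgat
Igfbp5, probe for NM_010518: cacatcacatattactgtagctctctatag
Igfbp5, probe for ENSMUST00000027377: tttagcattttggtacttaaggaAATAAAa
Igf1r, brightest probe for NM_010513: ttgtaacaatctattcacaagcctcctgta
Igf1r, probe for AK044980: tttctcaacaggcgaacgcaggcttagagt
The member probes were compared only with the probes of other genes, and not with the full transcripts of those genes. Whether they match other transcripts was not tested. The longest run that any member probe shared with a probe of another gene was 15 bases, and the GC content of the member probes ran from 26.7% to 55.0% with a median of 41.7%, equal to the median of all probes.

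Igf1, the growth factor that acts on muscle from the circulation and from the muscle itself, was read by 3 probes, all well above background on both arrays. The probe for NM_010512 lies on chromosome 10 from 87393516 to 87393575 (mm9, plus strand), and it had a level of 3.41 for MPDC-exo and 3.84 for KPC-exo. Its difference was 0.43 ± 0.20, a larger step than its scanner error. Among the measured probes in the highest quartile of signal, 5.45% lay at least as far from 0, so a step of this size was uncommon but not rare at that brightness. Of all measured genes, 8.13% had a difference at least as high as Igf1.

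The other Igf1 probes lie at lower coordinates of the same strand and gave different steps. The probe for NM_184052, from 87378456 to 87378515, had a level of -0.18 for MPDC-exo and -0.15 for KPC-exo. Its difference of 0.03 ± 0.21 was within the scanner error. The probe for AK050118, from 87325382 to 87325441, had a level of -2.04 for MPDC-exo and -1.29 for KPC-exo. Its difference of 0.75 ± 0.23 made it the 1 measured member probe past 1.5-fold higher, where 4.65% of all measured probes and 11.0% of those in the lowest quartile of signal stood. None of the 17 was past 1.5-fold lower, against 5.41% of all measured probes. With normexp background correction, which treats dim spots differently, the probe for AK050118 had a difference of 0.40, under 1.5-fold. The 3 Igf1 probes spanned 0.72 on the log2 scale, all above 0. The probe for NM_184052 changed sign in 2 alternatives, to -0.020 with median centring and -0.023 with the percentile over detected probes. Under the stricter filter on dim signal the probe for AK050118 was no longer counted as measured. Whether the probed segments are exonic, intronic or untranslated was not analysed here.

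Igf2, the IGF that myoblasts make as they differentiate, was read by 2 probes for NM_010514 and differed little. The brighter one, on chromosome 7 from 149837115 to 149837174 (mm9, minus strand), had a level of -0.96 for MPDC-exo and -0.996 for KPC-exo. Its difference was -0.04 ± 0.21. The other, from 149839661 to 149839720, was close to background, with a level of -3.12 against -3.26 and a difference of -0.15 ± 0.36, and its KPC-exo spot carried a flag for its local background. H19, the noncoding RNA gene next to Igf2 that is expressed from the opposite parental allele, had a level of 8.41 for MPDC-exo and 8.24 for KPC-exo, and its 2 measured probes differed by -0.26 and -0.17. Both neighbours thus lay slightly below 0 at every measured probe, the 2 Igf2 probes within their scanner error. Measured probes as bright as the brightest H19 probe leaned below 0 as a whole. In the brightest of 20 bins of equal size their median was -0.08, and the central 50% ran from -0.21 to 0.05. A shared shift of the 2 genes was not tested.

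**Figure D2:**
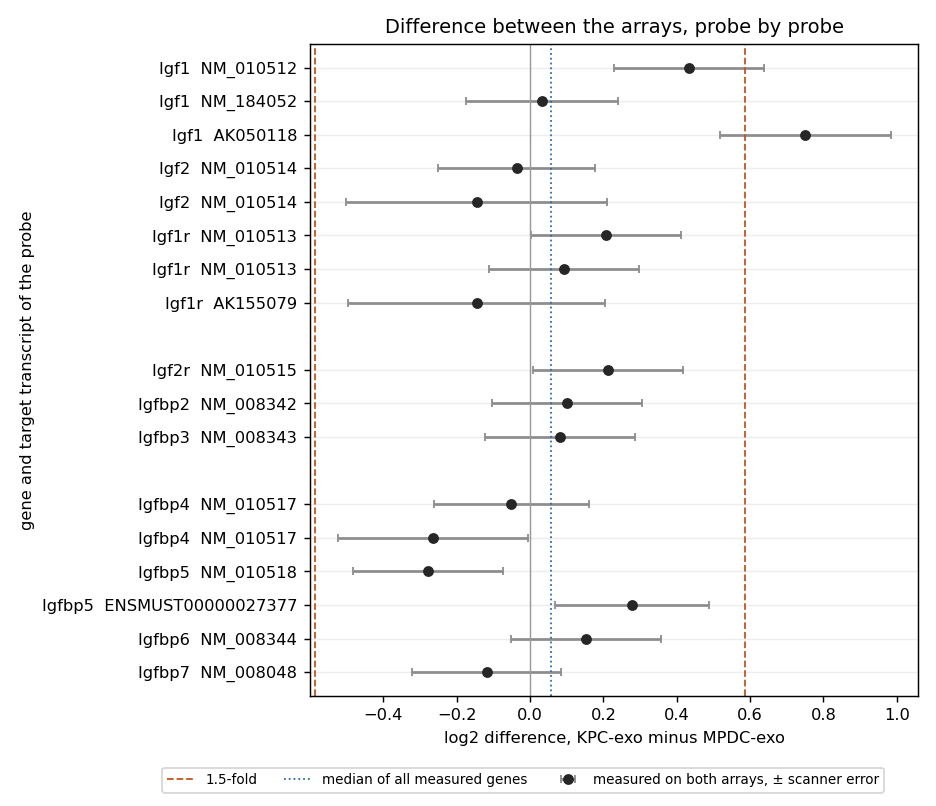
Log2 difference (KPC-exo minus MPDC-exo) of the 17 member probes measured on both arrays, with the scanner error as a bar, dashed lines at 1.5-fold and a dotted line at the median of all measured genes, 0.06. Only the Igf1 probe for AK050118, at 0.75, passes a dashed line, and the 2 Igfbp5 probes lie on opposite sides of 0.

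Igf1r, the receptor through which both ligands signal, was read by 4 probes. The brightest probe for NM_010513, on chromosome 7 from 75371371 to 75371430 (mm9, plus strand), had a level of 2.41 for MPDC-exo and 2.62 for KPC-exo, a difference of 0.21 ± 0.20. The second probe for NM_010513, from 75371556 to 75371615, had a level of 1.34 against 1.43 and a difference of 0.09 ± 0.20, and its local background was flagged on both arrays. The step of the brightest probe just exceeded its scanner error, and 43.3% of measured probes in the same quartile of signal lay at least as far from 0. This step was 0.15, within that error, with median centring, and 0.22, past it, with cyclic loess normalization.

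The other Igf1r probes target complementary DNA clones, and they lie beside each other, at lower coordinates of the same strand. The probe for AK155079, from 75332796 to 75332855, had a level of -3.08 for MPDC-exo and -3.23 for KPC-exo, a difference of -0.15 ± 0.35. The probe for AK044980, from 75332515 to 75332574, passed the background criterion for KPC-exo only, with a level of -3.04. Its MPDC-exo value of -4.20 lay under the lowest level that was well above background there, -3.61, so KPC-exo was at least 1.49-fold higher for this probe, a bound that allows for no spot error. The KPC-exo spot of this probe carried a background flag, and its role in the bound was not tested. These probes lie near each other and near background, and 1 of them was lower while the other was higher.

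Igf2r, which clears IGF2 and also sorts lysosomal enzymes, was read by 1 probe for NM_010515 on chromosome 17, for which the files give an interval of only 11 of its 60 bases, from 12875253 to 12875263 (mm9, minus strand). Its level was 2.52 for MPDC-exo and 2.73 for KPC-exo, a difference of 0.21 ± 0.20. M6pr, which encodes the other mannose 6-phosphate receptor, had a difference of 0.25 at its brightest probe, and its 3 measured probes ran from -0.18 to 0.25. Of all measured genes, 27.5% had a difference at least as high as Igf2r.

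Igfbp5, a binding protein that muscle cells make in quantity while they differentiate, had 2 probes for 1 stretch of chromosome 1 with opposite signs. The probe for NM_010518, from 72904829 to 72904888 (mm9, minus strand), had a level of 5.31 for MPDC-exo and 5.03 for KPC-exo. Its difference was -0.28 ± 0.20. The probe for ENSMUST00000027377 is placed from 72904506 to 72904552, an interval of only 47 of its 60 bases. Its level was -0.68 for MPDC-exo and -0.40 for KPC-exo, a difference of 0.28 ± 0.21. It is the probe that holds AATAAA, beginning at base 24, and it had the lowest GC content of the 19, 26.7%. Each step exceeded its scanner error, in opposite directions, and the mean over both was -0.00077. With normexp background correction the differences of the 2 probes were -0.17 and 0.18, smaller than those errors.

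The remaining binding proteins had smaller differences. Igfbp3, the main carrier of IGFs in blood, had a level of 3.36 for MPDC-exo and 3.44 for KPC-exo at its probe for NM_008343 on chromosome 11, from 7106193 to 7106252. Its difference was 0.08 ± 0.20, and neither array gave its other probe a signal well above background. Igfbp2, a carrier found in serum and many tissues, had a level of 3.24 for MPDC-exo and 3.34 for KPC-exo at its probe on chromosome 1, from 72898677 to 72898736. Its difference was 0.10 ± 0.20. Neither step exceeded the scanner error.

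Igfbp6, which prefers IGF2 as its ligand, had a level of 5.87 for MPDC-exo and 6.02 for KPC-exo at 1 probe on chromosome 15, from 101979852 to 101979911, a difference of 0.15 ± 0.20. Igfbp7, a related protein that binds IGFs only weakly, had a level of 7.53 for MPDC-exo and 7.41 for KPC-exo at 1 probe on chromosome 5, from 77778355 to 77778414, a difference of -0.12 ± 0.20. Igfbp7 falls in the brightest of the 20 bins of measured probes. There the median difference was -0.08 and the central 50% ran from -0.21 to 0.05. With cyclic loess normalization Igfbp7 lay at 0.0019. Neither gene had a step larger than the scanner error.

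Igfbp4, a binding protein that restrains IGFs until PAPP-A cleaves it, was read by 2 probes for NM_010517 on chromosome 11, both slightly lower. The brighter one, from 98913334 to 98913393, had a level of -0.76 for MPDC-exo and -0.81 for KPC-exo, a difference of -0.05 ± 0.21. The other, from 98909591 to 98909650, had a level of -2.18 against -2.44 and a difference of -0.26 ± 0.26, and its KPC-exo spot carried a background flag. Background flags fell on 4 of the 19 member probes on the KPC-exo array and on 1 on the MPDC-exo array, while 6334 and 2296 of the 59305 spots other than controls carried one. Pappa, which encodes PAPP-A, had a difference of 0.29.

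**Figure D3:**
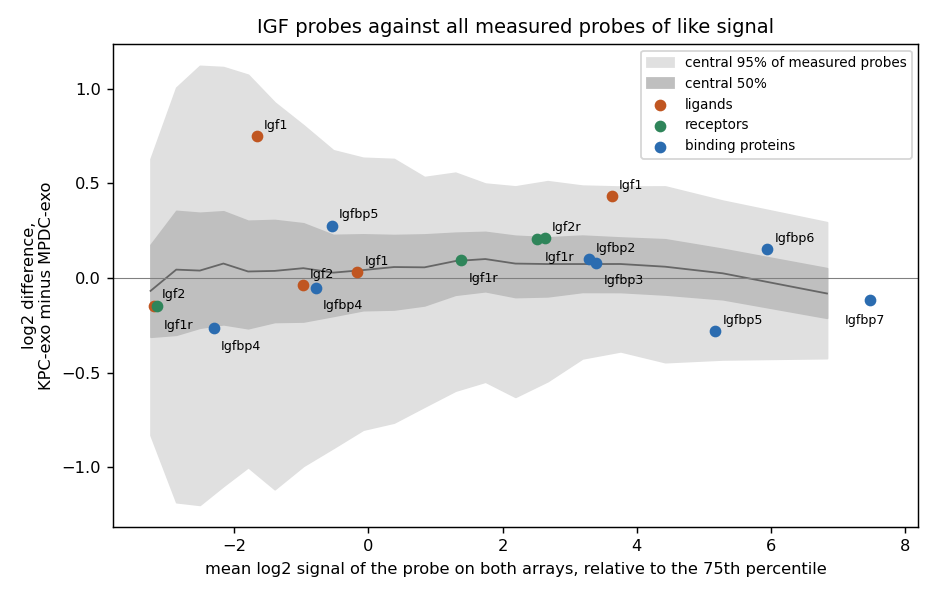
Log2 difference of each measured member probe against its mean log2 signal on both arrays, with ligands, receptors and binding proteins in separate colours over the central 95% (light grey) and central 50% (dark grey) of all measured probes in 20 bins of equal size. The bands widen toward dim signal, and the member probes lie within the light band, except that Igfbp7 is brighter than the median of the last bin, where the band ends.

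The members were also read against probes of like brightness. In the highest quartile of measured probes, the 6 member probes had a median absolute difference of 0.14, against 0.15 for all probes there. In the third quartile, the 3 member probes had 0.21 against 0.18. In the second quartile the 4 member probes had 0.04 against 0.23, and in the lowest quartile the 4 had 0.21 against 0.29. The members' median was thus above that of all probes in 1 quartile and below it in the other three. Of the 17 measured member probes, 10 lay above 0 and 7 below, and 15 lay between -0.28 and 0.28. Of the 5 genes with several measured probes, 3 had all of them on 1 side of 0, namely Igf1, Igf2 and Igfbp4, while Igf1r and Igfbp5 did not.

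Other genes of the pathway were taken from a list of 37, all of them on the array, of which 28 were measured. Of the 28, 2 were at least 1.5-fold higher and 2 at least 1.5-fold lower, against 3.73% and 3.70% of all measured genes, with a median difference of 0.11. The 2 higher genes became 0 with median centring, with the percentile over detected probes, with quantile normalization and from the authors' deposited values. Under each of these, at most 3.28% of all measured genes were at least 1.5-fold higher. Among 13 proteases of the binding proteins, their inhibitors and carriers, 9 were measured with a median of 0.20 and a range from -0.28 to 0.63. Htra3, which encodes a secreted serine protease of the family that cleaves binding proteins, was 1.54-fold higher at its brightest probe, but its 2 measured probes ran from -0.15 to 0.63 and their mean was 0.24. Htra1, in the same group, was lower, its 2 measured probes running from -0.46 to -0.28. Igfbp1, made mainly in liver, and Igfals, which encodes a subunit of the circulating IGF complex, had no probe well above background on both arrays.

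Among 6 genes of insulin peptides and related receptors, 5 were measured with a median of 0.25. Insr, the insulin receptor, had a level of -1.78 for MPDC-exo and -2.74 for KPC-exo and was 1.95-fold lower at 1 measured probe of 2. This probe is dim, and under the stricter filter on dim signal Insr was not counted as measured. Igf1r, which can pair with the insulin receptor in hybrid receptors, did not show such a step, its measured probes running from -0.15 to 0.21. Ins1 and Ins2, which encode insulin and are so alike that a probe may read both, had differences of 0.58 and 0.37. Ghr, also in this group, differed by 0.17 at its brightest probe, and its 4 measured probes ran from 0.17 to 1.08.

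Of 14 substrates, adaptors and kinases downstream of the receptors, 12 were measured with a median of 0.03. Irs2, which couples the receptors to PI3K, had a level of 3.39 for MPDC-exo and 3.98 for KPC-exo, 1.51-fold higher. From the authors' deposited table its difference was 0.53, under 1.5-fold. Pik3r1, the regulatory subunit of PI3K, was 1.87-fold lower at its 1 probe, with a level of 2.52 for MPDC-exo and 1.62 for KPC-exo. Akt1 and Akt2, kinases that carry the signal onward from PI3K, had differences of -0.14 and -0.18 at their brightest probes, but their probes disagreed. The 3 measured probes of Akt1 ran from -1.86 to 0.51 and the 3 of Akt2 from -0.97 to -0.18. Irs1, another receptor substrate, differed by 0.03 at 1 probe. Of the RNA partners of Igf2, the binding protein gene Igf2bp2 differed by 0.11. Igf2bp1 passed the background criterion for MPDC-exo only and was at least 1.73-fold lower with KPC-exo. Igf2bp3 passed it for KPC-exo only and was at least 1.29-fold higher. Both bounds allow for no spot error, and the levels that passed, -2.97 for Igf2bp1 and -3.24 for Igf2bp3, were near background.

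**Figure D4:**
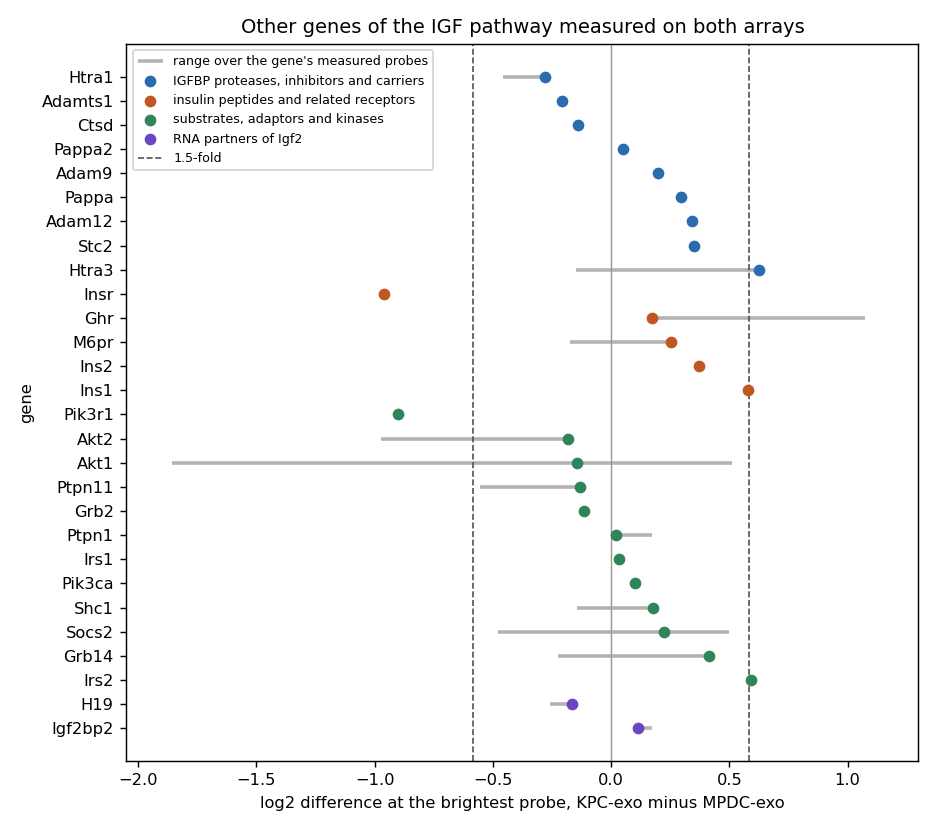
Log2 difference at the brightest probe of the 28 measured pathway genes outside the IGF family, coloured by group, with a grey line over the range of the measured probes of each gene and dashed lines at 1.5-fold. Among the points, Insr at -0.96 and Pik3r1 at -0.90 lie furthest to the left, while the probe ranges of Akt1 and Akt2 reach further, to -1.86 and -0.97. Htra3 and Irs2 lie just past the right dashed line, and the probe range of Ghr reaches further, to 1.08.

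Spike-in centring apart, no member gene passed 1.5-fold under an alternative treatment of the signal, but some values moved. Over these 11 alternatives, Igf1 ranged from 0.37 to 0.47, Igf1r from 0.05 to 0.22 and Igfbp5 from -0.33 to -0.00077. The ends nearest 0 for Igf1r and Igfbp5 came from the mean over probes, and Igfbp7 changed sign with cyclic loess. With normexp the dim Igf2 probe moved from -0.15 to -0.36 and the Igf1r probe for AK155079 from -0.15 to -0.35. Centring on 7 added spike-in probes in place of the bulk of signal raised every gene by 1.00, so the differences given are relative to bulk signal, and they give no absolute amount per culture.

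**Figure D5:**
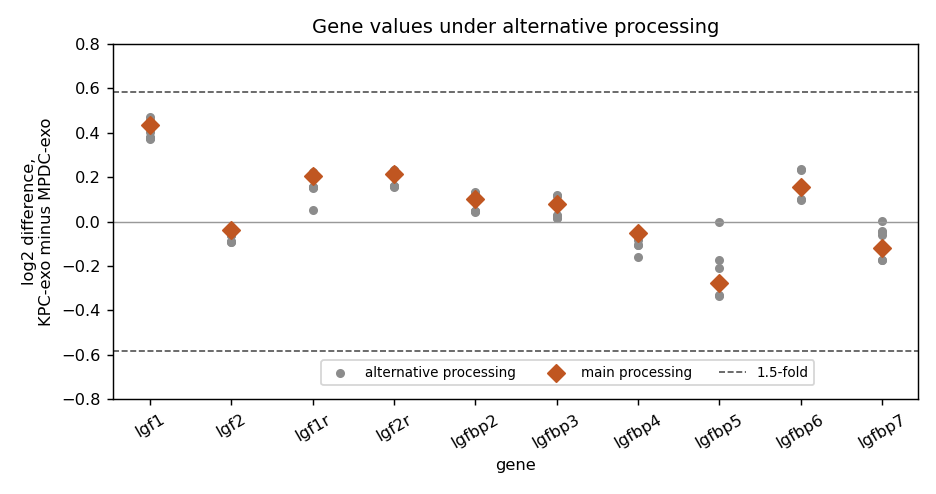
Log2 difference of the 10 member genes under the main processing (orange diamonds) and under 11 alternatives (grey points), the spike-in centring not being drawn, with dashed lines at 1.5-fold. All points lie between the dashed lines, from -0.33 for Igfbp5 to 0.47 for Igf1, and the mean over both probes brings Igfbp5 to 0.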

How the data were processed

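Per the labels, total RNA was labelled with Cy3 and read on 1-colour arrays. Per the submitters' processing notes and the file headers, Agilent Feature Extraction 10.7.1.1 made the deposited spot intensity, background-subtracted and spatially detrended on a linear scale, and other flags of each spot, with probe positions on mm9. The series value table was deposited by the authors as log2 values, by steps that no source used here gives. Its columns share a median of 4.88 and correlated across probes with the scanner values at 1.00, and it served as an alternative. Its scale is log2 and not centred per gene.

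Flagged spots were left out (102 and 166), log2 was taken, and the 75th percentile of each array was subtracted. The brightest probe stood for its gene. RefSeq accessions (GRCm38.p6, names only) updated 1535 of 56605 probe names and none of a member. The bound of a probe well above background on 1 array sets its value against the other array, at the higher of the dim spot's signal and the lowest signal passing there. Members and lists were chosen with earlier results of these data known. All members are named, with pathway genes at least 1.5-fold apart or the furthest of a group without one, and other genes chosen after their values were seen. Alternatives were other background corrections, centrings, normalizations, filters and thresholds, flagged spots kept or removed, and a mean over probes. The summaries were tested on simulated data. Python 3.11.15, pandas 2.3.3 and R 4.3.3 with limma 3.58.1 were used. The number of arrays, 1 per group, limits the precision. With 2 arrays no gene was named for a like pattern. The genotype of the mice behind the KPC line is not reported here.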

Additional observations from a re-analysis of the deposited data

How the results depend on the processing

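All 10 members were measured under each alternative. With spike-in centring the median log2 difference of the members was 1.09 and 10 members were at least 1.5-fold higher, as every gene was raised, and in the pathway list 26 genes were higher and 0 lower, with Insr at 0.038 and Pik3r1 at 0.099 in place of negative values. Of all measured genes, 93.4% were then higher and 0.336% lower. At the lower fold threshold 1 member, Igf1, was higher and 0 were lower, and 7 pathway genes were higher and 2 lower. Of all measured genes, 15.5% were then higher and 10.1% lower, so the member count lay near that background. At 2-fold 0 pathway genes were higher and 0 lower, against 0.73% and 1.19% of all measured genes. The 2 pathway genes past 1.5-fold higher became 0 with median centring, with the percentile over detected probes, with quantile normalization and from the authors' deposited values. With the mean over probes they became 1. Under each of these settings at most 3.63% of all measured genes were higher, so few calls were to be had among 28 pathway genes under any of them. With no filter on dim probes 4 pathway genes were higher and 4 lower, against 8.22% and 7.13% of all genes. With the stricter filter, which leaves out Insr, 1 was lower, against 2.38% of the genes measured under it. The causes were not tested beyond what each construction sets. Signal near background limits the dim probes of Igf1, Igf2, Igf1r and Igfbp4. Values per probe were recomputed as a choice made after seeing the data.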
